A study of Mus musculus with 4 samples.

Results

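The regions described here were divergent promoters, stretches of open chromatin shared by 2 protein-coding genes that are transcribed away from each other. They were found in E14 mouse embryonic stem cells (ESCs) profiled by ATAC-seq, an assay in which a transposase cuts chromatin where it is open. A peak is a stretch in which such cuts were dense enough to be called. The data were 4 peak lists, 1 from cells carrying a short hairpin RNA against GFP (shGFP) and 3 from cells carrying a hairpin against luciferase (shLuc replicates 1, 2 and 3). Neither target is a mouse gene, so all 4 libraries were controls. All cells were grown in serum with LIF, infected with a pLKO lentivirus, selected for 2 days in 2 μg/ml puromycin and collected 2 days later. E14 is a single cell line, and shGFP had no replicate. Each list gave the position of its peaks and nothing else, so the depth of the libraries is unknown.

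Peaks of the 4 lists that overlapped were merged into 50704 regions on the autosomes. A region was a divergent promoter when it lay within 1 kb of the transcript starts of 2 coding genes of GENCODE mouse release 21 on opposite strands, with the minus-strand start upstream of the plus-strand start and no more than 1 kb between them. This gave 1074 divergent promoters, 2.12% of all regions. Of these, 1036 held 1 gene pair and 38 held 2 pairs. They were compared with 12988 regions within 1 kb of a start of 1 coding gene only, called single-gene promoters. The annotation held 1201 divergent pairs on the autosomes, formed by 2350 genes or 11.3% of the 20807 autosomal coding genes, and 1099 of the pairs lay at a divergent promoter with a peak in at least 1 library.

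In mammals many genes are arranged head to head around a short stretch of DNA that starts transcription in both directions. Such bidirectional promoters tend to be rich in the dinucleotide CpG and poor in TATA boxes, and they are known for housekeeping genes, among them genes of DNA repair and of mitochondria. Replication-dependent histone genes, which are transcribed during DNA synthesis, are also arranged as divergent pairs, most often of an H2A and an H2B gene.

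The DNA between the starts of 3 pairs is shown as examples of short shared promoters that differ in CpG content. All 3 pairs had a peak in each of the 4 libraries. Each sequence is the plus strand of GRCm38 (mm10) from the base after the minus-strand start to the base before the plus-strand start, with CpG in capitals, and none overlaps an annotated exon. Skiv2l/Nelfe (chr17:34850211-34850390, 180 bases, 23 CpG) pairs an RNA helicase of the exosome pathway with a subunit of the negative elongation factor. Hras/Lrrc56 (chr7:141194006-141194156, 151 bases, 18 CpG) has a growth signalling GTPase on the minus strand. Brca1/Nbr1 (chr11:101551956-101552148, 193 bases, 9 CpG) joins a homologous recombination gene to an autophagy receptor and is the poorest of the 3 in CpG.
Skiv2l/Nelfe: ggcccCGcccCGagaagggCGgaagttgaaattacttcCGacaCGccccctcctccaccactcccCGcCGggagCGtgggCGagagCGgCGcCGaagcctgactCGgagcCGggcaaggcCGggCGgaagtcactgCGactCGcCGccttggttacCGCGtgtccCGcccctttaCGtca
Hras/Lrrc56: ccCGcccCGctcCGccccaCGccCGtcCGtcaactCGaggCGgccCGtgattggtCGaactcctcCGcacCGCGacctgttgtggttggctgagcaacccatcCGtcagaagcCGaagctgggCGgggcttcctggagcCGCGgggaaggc
Brca1/Nbr1: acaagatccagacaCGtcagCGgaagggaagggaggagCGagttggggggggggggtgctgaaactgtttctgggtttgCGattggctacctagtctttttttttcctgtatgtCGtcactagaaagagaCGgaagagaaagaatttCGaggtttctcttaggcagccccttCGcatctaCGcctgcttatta

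As a check of the cell type, promoters of 12 ESC marker genes were examined. A peak lay within 1 kb of a start in all 4 libraries for 2 of them, Zfp42 and Tfcp2l1, in some libraries for 4, and in none for 6, including Pou5f1, Nanog and Sox2. Markers of fibroblasts (Col1a1, Thy1 and Twist1) had a peak in all 4 libraries for 3 of 3, endoderm markers for 1 of 3 and neural markers for 0 of 2. None of these genes is in a divergent pair, and the part of other cells in the results was not tested.

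The divergent promoters were shared by the libraries more often than other regions. A peak in all 4 libraries was found at 862 of 1074 divergent promoters (80.3%, Wilson 95% interval 77.8 to 82.5), against 27.3% of all autosomal regions and 56.2% of single-gene promoters. A further 126 divergent promoters had a peak in 3 libraries, 51 in 2 and 35 in 1. The library that was short of a peak was most often shLuc replicate 1, the shortest list: 82 divergent promoters lacked a peak in that library alone, 35 in shLuc replicate 3 alone, 6 in shGFP alone and 3 in shLuc replicate 2 alone. In the same order these were 7.64%, 3.26%, 0.559% and 0.279% of divergent promoters. The shares of single-gene promoters were 16.9%, 3.44%, 0.431% and 0.708%, so there too shLuc replicate 1 was most often the one without a peak.

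In each library, more divergent than single-gene promoters had a peak. In shGFP the share was 96.2% of divergent and 90.1% of single-gene promoters, and in shLuc replicate 2 it was 95.7% and 89.1%. In shLuc replicate 3 the shares were 90.5% and 78.9%, and in shLuc replicate 1 they were 86.6% and 63.7%. The gap between the classes was therefore widest, at 22.9 points, in the library with the fewest peaks (17860, against 31585 to 41943 in the others). The mean difference was 11.8 points ± 7.81 (SD, n = 4), with divergent promoters higher in 4 of 4 libraries. An exact sign-flip permutation test over the 4 libraries, two-sided, gave p = 0.13, which is the smallest value that 4 libraries can give, so no difference between the classes could pass a usual threshold. Without shLuc replicate 1 the mean difference was 7.41 points, and the share of divergent promoters with a peak in each library left was 88.2%. Fewer libraries then had to hold a peak, so a rise in that share was nearly fixed in advance.

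shGFP and shLuc differed by little at these promoters. The 96.2% of shGFP stood beside a mean of 90.9% ± 4.58 (SD, n = 3) in shLuc, a gap of 5.25 points that was little larger than the SD, and shLuc replicate 2 was within 1 point of shGFP. With 1 library against 3 no test could pass, and none was run.

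Because a region enters the counts above only if some library had a peak there, and a wide region reaches 2 starts more easily than a narrow one, the comparison was repeated over every annotated promoter. A pair counted as occupied when a peak lay within 1 kb of both starts. Of the 1201 annotated divergent pairs, 88.3% were occupied in shGFP, 79.9% in shLuc replicate 1, 87.8% in shLuc replicate 2 and 82.7% in shLuc replicate 3. Of 17703 annotated single-gene promoters, 57.5%, 43.5%, 57.1% and 52.0% had a peak. The mean difference was 32.1 points ± 2.87 (SD, n = 4), and the ranges of the classes did not overlap. The exact sign-flip permutation test over libraries again gave its smallest p, 0.13. There was no peak in any library at 102 divergent pairs (8.49%), against 38.3% of single-gene promoters. Sensory receptor genes made up 1481 of the single-gene promoters, and 1457 of these had no peak in any library, whereas 2 such genes were in pairs. Their part in the difference was not tested.

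**Figure D1:**
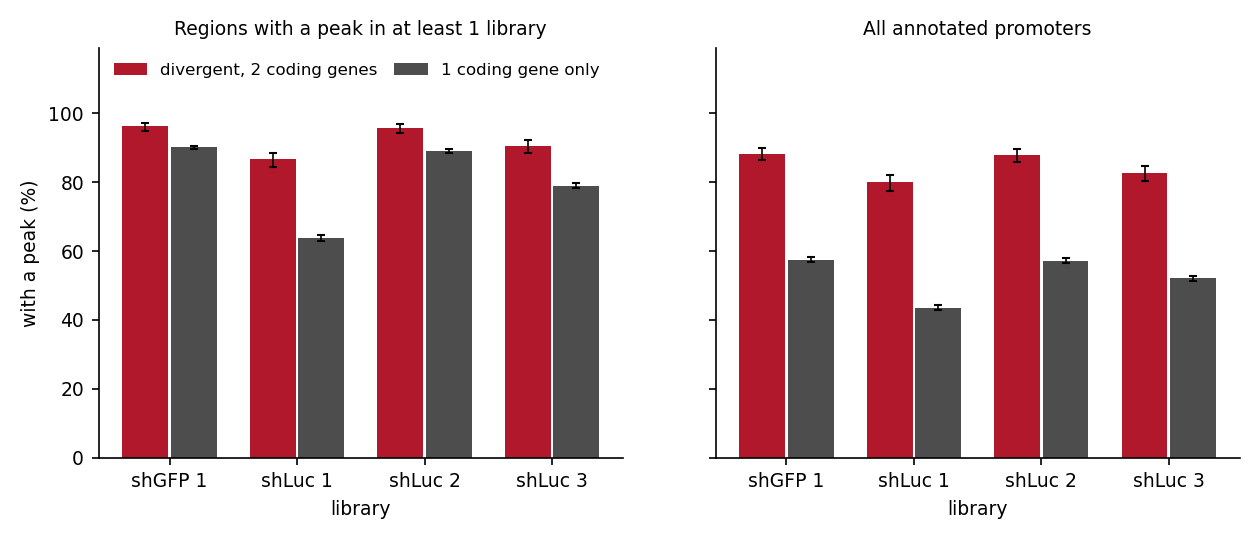
Percent of promoters with a peak in each library (shGFP 1 and shLuc 1 to 3), for divergent promoters of 2 coding genes (red) and promoters of 1 coding gene (grey). The left plot counts merged regions and the right plot all annotated promoters, bars are shares, and error bars are Wilson 95% intervals over promoters. The red bar is the higher in every library, from 86.6% to 96.2% on the left and from 79.9% to 88.3% on the right.

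Most of this difference over annotated promoters went with CpG density as measured here. In a 500-bp window around the midpoint between the starts, divergent pairs had a median of 7.6 CpG per 100 bp (quartiles 5.8 and 9.8), and around the 5′ end of single genes the median was 4 (1.2 and 8.2). Median GC content was 62% and 56.6%, and the ratio of CpG found to CpG expected from base composition was 0.822 and 0.528. When single-gene promoters were averaged with the CpG densities of the divergent pairs, the difference in occupancy over annotated promoters fell to 8.21 points ± 3.90 (SD, n = 4), between 5.89 and 14.0 in single libraries. The direction was the same in each library. Over regions, with the window at the middle of each region, the same standardisation brought the difference from 11.8 to 6.93 points. Over annotated promoters, CpG of a single gene was taken at its outermost annotated start, but a peak near any of its starts counted. The effect of this on the medians, the standardised value and the bins below was not tested.

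Within each of 7 bins of CpG density, the occupied share of divergent pairs was above that of single-gene promoters in each library. In the bin of 8 or more CpG per 100 bp, which held 571 pairs, 95.6% of pairs and 90.9% of single-gene promoters were occupied in shGFP, and 90.5% and 77.9% in shLuc replicate 1. Between 4 and 6 CpG per 100 bp, where there were 180 pairs, these shares were 90.0% and 79.5% in shGFP and 72.2% and 55.0% in shLuc replicate 1. Under 1 CpG per 100 bp only 27 pairs were left, and 18.5% to 25.9% of them had a peak, against 5.54% to 9.38% of 3721 single-gene promoters. CpG-poor divergent pairs were thus mostly without a peak, as CpG-poor single genes were.

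**Figure D2:**
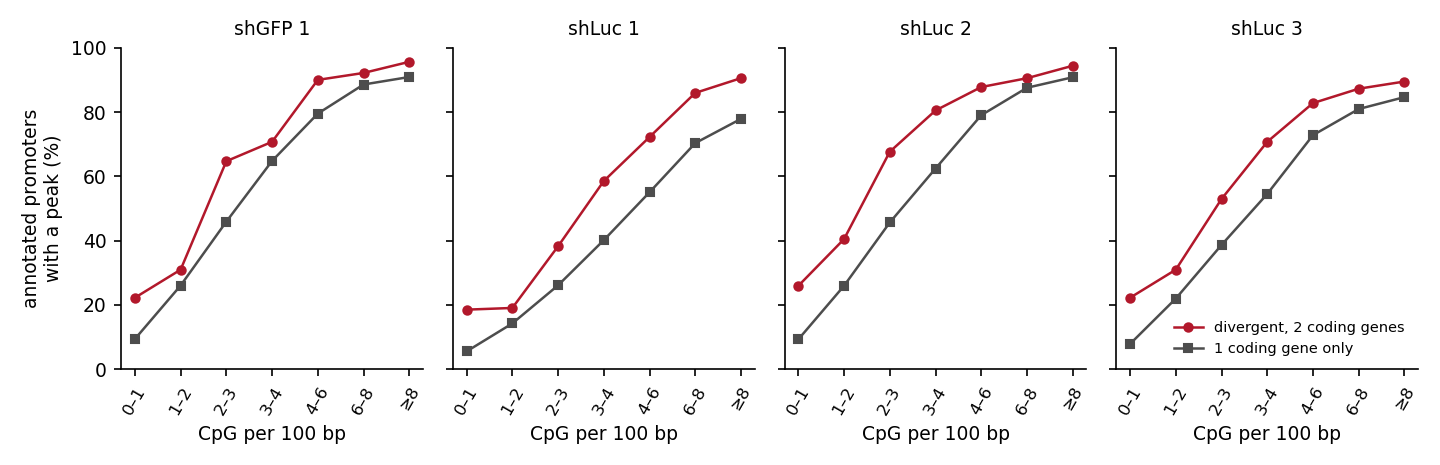
Percent of annotated promoters with a peak against CpG per 100 bp in a 500-bp window, 1 plot per library, for divergent pairs (red circles) and single-gene promoters (grey squares). Occupancy climbed with CpG density in both classes, and the red points lie above the grey ones in each of the 7 bins.

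Occupancy also differed with what else started nearby. Single-gene promoters with a divergent start of a long noncoding RNA within 1 kb (1349 genes) had a median of 7.4 CpG per 100 bp, close to that of the coding pairs, and 79.6%, 64.1%, 80.0% and 74.1% were occupied in the 4 libraries. Coding pairs exceeded these by 10.2 points ± 3.75 (SD, n = 4). Single-gene promoters with no other annotated start (15160 genes) had a median of 3.2 CpG per 100 bp and were occupied in 40.5% to 54.0%, a mean of 35.5 points ± 2.66 (SD, n = 4) below the coding pairs.

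Starts of divergent pairs lay close together. The median distance was 106 bp (quartiles 57 and 208), and 84.6% of pairs were no more than 300 bp apart. Up to 500 bp, the distance made little difference to occupancy: 87.4% to 90.8% of pairs were occupied in shGFP and 80.3% to 86.7% in shLuc replicate 1. For the 98 pairs with starts 501 to 1000 bp apart, these shares were 69.4% and 54.1%. The widely spaced pairs were also poorer in CpG, with a median of 3.2 per 100 bp against 8.2 for the closest pairs, and the part of either feature in their lower occupancy was not tested. At the edge of the rule, 25 pairs with starts 801 to 1000 bp apart were occupied in 52.0% to 72.0%, and 27 pairs just outside it, up to 1200 bp apart, in 22.2% to 55.6%.

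A single peak covered both starts of most occupied pairs. This was so for 92.5% of occupied pairs in shGFP, 86.7% in shLuc replicate 1, 91.2% in shLuc replicate 2 and 90.7% in shLuc replicate 3. The starts fell in 2 separate peaks at 2 pairs or fewer in any library. The share fell with distance, from 96.0% of occupied pairs in shGFP with starts within 100 bp to 52.9% with starts over 500 bp apart, and from 93.1% to 39.6% in shLuc replicate 1.

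**Figure D3:**
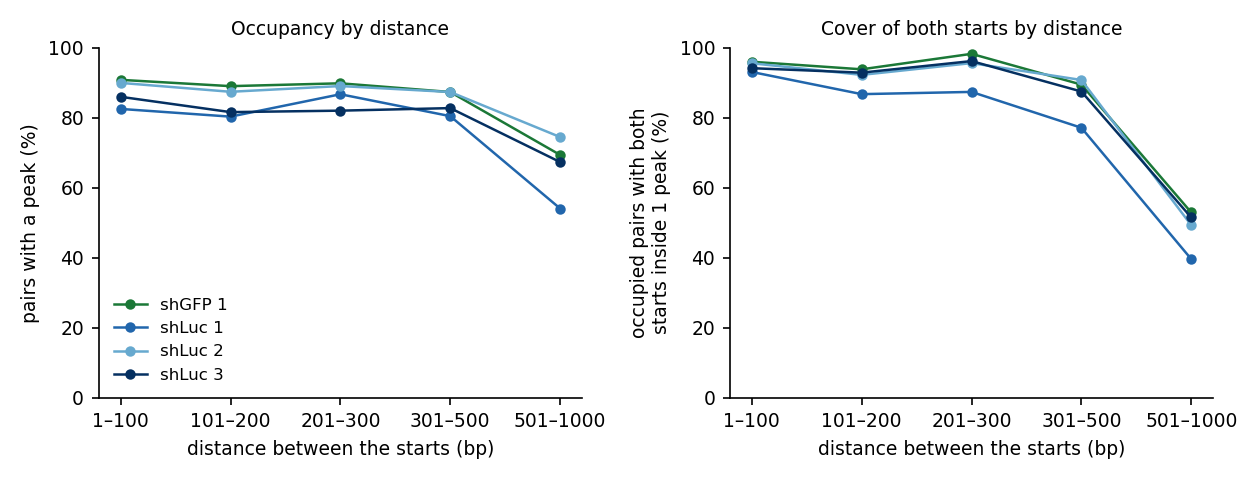
Percent of annotated divergent pairs with a peak (left) and percent of occupied pairs with both starts inside 1 peak (right), against the distance between the starts in bp, 1 line per library. Occupancy is level up to 500 bp and drops in the last bin, to between 54.1% and 74.5%, and the share with both starts covered drops to between 39.6% and 52.9%.

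Peaks at divergent promoters were wider than at single-gene promoters in each library. Median widths were 1043 bp at divergent and 913 bp at single-gene promoters in shGFP, 767.5 and 673 bp in shLuc replicate 1, 995 and 879 bp in shLuc replicate 2, and 960 and 855 bp in shLuc replicate 3. The difference was 111 bp ± 15.2 (SD, n = 4), with p = 0.13 from the exact permutation test, again the smallest it can give. Since the rule favours wide regions, peaks that covered the midpoint of an annotated pair were set against peaks that covered the 5′ end of a single gene. There the difference was 74.9 bp ± 7.69 (SD, n = 4), between 69.5 and 86 bp in single libraries. The midpoint was that of the closest starts of a pair and the 5′ end the outermost start of a gene, so the positions were not chosen alike. Over regions, the difference was 39.6 bp on average among the widest 50% of each list and was above 0 in each library. That setting picks peaks by width, the measure compared. It therefore cannot show what the rule's preference for wide regions adds, and no conclusion is drawn from it.

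Peaks lay over the starts of a pair but were often lopsided. The peak centre had quartiles of 115 bp to the minus-strand side and 116.5 bp to the plus-strand side of the midpoint in shGFP, and the median centre was 0.5 to 6.5 bp from the midpoint in the 4 libraries. Which gene of a pair is on the plus strand is arbitrary, so a median near 0 says nothing of single pairs. The peak of shGFP at Brca1/Nbr1 reached further to the Nbr1 side, and that at Hspd1/Hspe1 further to the Hspd1 side. In shGFP the median peak reached 436 bp past the minus-strand start and 440 bp past the plus-strand start, and in shLuc replicate 1 it reached 293 and 300 bp. At single genes, where the direction of transcription gives the sides a meaning, the median reach was 351 bp upstream and 575 bp downstream of the 5′ end in shGFP and 260 and 427 bp in shLuc replicate 1. The 5′ end of a gene is its outermost annotated start, whereas the starts of a pair were the closest ones, so these reaches are given side by side and were not compared.

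**Figure D4:**
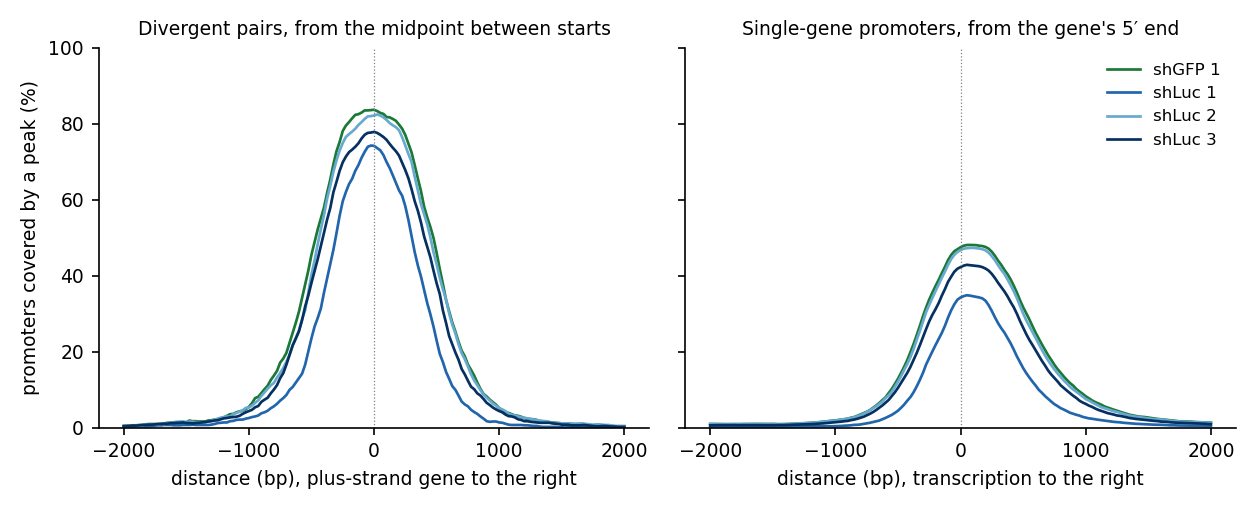
Percent of annotated promoters covered by a peak at each distance in bp, from the midpoint between the starts of divergent pairs (left) and from the 5′ end of single genes (right), 1 line per library. Cover of pairs was highest within 25 bp of the midpoint, at 74.3% to 83.7%, with the sides of the left plot set by genome strand alone. Cover of single genes was highest 50 to 100 bp downstream and reached further downstream than upstream.

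Short sequences bound by promoter factors were counted in the window from 250 bp upstream to 50 bp downstream of each gene's 5′ end, on both strands. The windows of a close pair overlap, so the same match can count for both genes. GGGCGG, the core of SP family sites, was found at 62.3% of genes in divergent pairs, 41.2% of single genes and 43.7% of all autosomal coding genes. CCGGAAG, which ETS factors bind, was found at 24.4%, 9.18% and 11.0%. AAGATGGCG, a YY1 site, was found at 4.26%, 1.305% and 1.70%, and TCTCGCGA, part of a palindromic core promoter element, at 3.70%, 1.034% and 1.35%. GCGCATGCG, an NRF1 site, was found at 4.04%, 1.94% and 2.201%, and the E box CACGTG at 10.1%, 7.51% and 7.82%. The TATA box TATAAA went the other way, with 5.11% of pair genes, 13.8% of single genes and 12.7% of all genes. CCAAT, the NF-Y site, hardly differed, at 39.7%, 38.6% and 38.6%. Among genes with a peak in all 4 libraries only, GGGCGG was at 66.3% of pair genes and 63.4% of single genes, and CCGGAAG at 27.2% and 15.96%. In the same genes CACGTG was at 10.3% and 10.4%, GCGCATGCG at 4.60% and 3.55%, AAGATGGCG at 4.14% and 2.46%, and TCTCGCGA at 3.56% and 2.13%. TATAAA was at 3.85% and 6.65% and CCAAT at 43.3% and 39.95%. The E box shares were thus nearly equal, and for the other motifs except CCAAT the shares of the classes lay closer together.

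Textbook divergent pairs showed what these numbers look like at single promoters. All 22 pairs listed were annotated as divergent within 1 kb, 17 had a peak in all 4 libraries, and each had one in at least 1 library. At Hspd1/Hspe1, the genes of the mitochondrial chaperonin and its cochaperonin, the peak was 1303 bp wide in shGFP and 1003, 1195 and 1149 bp in shLuc replicates 1, 2 and 3. At Mcm4/Prkdc, a replication helicase subunit and the kinase of DNA end joining, it was 941 bp in shGFP and 739, 888 and 970 bp in shLuc. At Atm/Npat, the DNA damage kinase and a coactivator of histone genes, widths were 1173 bp in shGFP and 715, 959 and 1187 bp in shLuc. The peak was narrowest in shLuc replicate 1 at all 3 of these promoters.

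A peak overlapped each of the first 3 printed sequences in each library. At Brca1/Nbr1 it was 1406 bp wide in shGFP and 1103, 1197 and 1290 bp in shLuc replicates 1, 2 and 3. At Skiv2l/Nelfe it was 853 bp in shGFP and 988, 1031 and 1028 bp in shLuc. The shGFP peak was the widest of the 4 at Brca1/Nbr1 and the narrowest at Skiv2l/Nelfe, so the order of the libraries differed between these 2 promoters. Over all divergent promoters, the median width was largest in shGFP (1043 bp) and smallest in shLuc replicate 1 (767.5 bp).

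Another 5 textbook pairs lacked a peak somewhere. Fen1/Tmem258, with the flap endonuclease of DNA replication, had peaks of 1295, 1388 and 1450 bp in shGFP and shLuc replicates 2 and 3 and none in shLuc replicate 1. Col4a1/Col4a2, which encode chains of basement membrane collagen, had peaks of 1296, 1568 and 1617 bp in shGFP and shLuc replicates 1 and 2 and none in shLuc replicate 3. Surf1/Surf2 had peaks of 534 and 610 bp in shGFP and shLuc replicate 1 alone. Tk1/Afmid, with the thymidine kinase of the cell cycle, had a peak of 732 bp in shGFP alone. Wrap53/Trp53 had 1 peak of 511 bp, in shLuc replicate 2, which lay to the Wrap53 side and covered neither start.

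**Figure D5:**
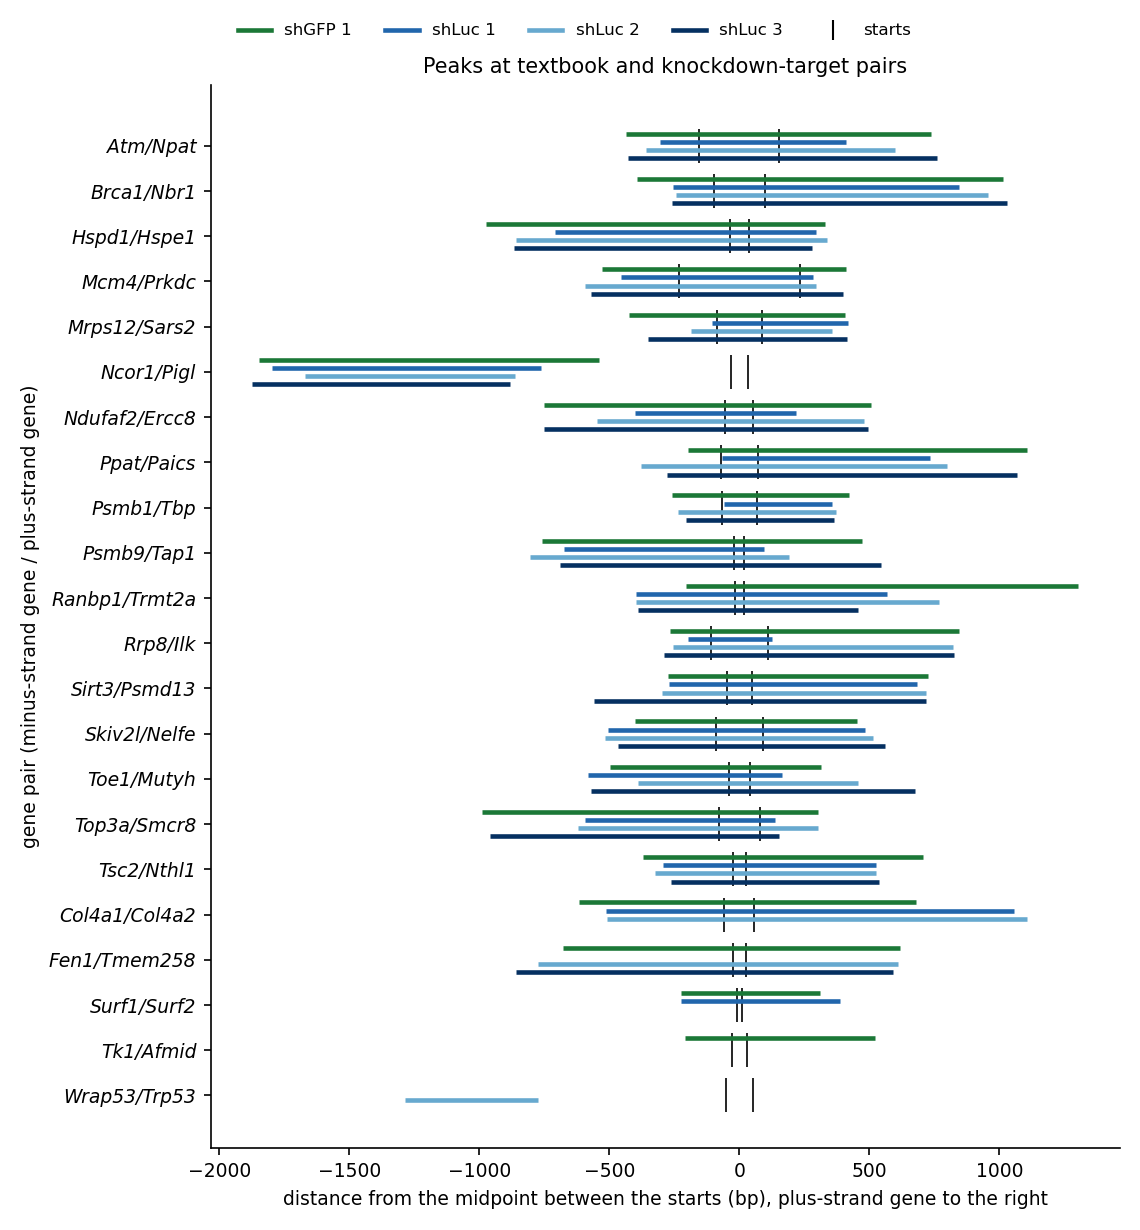
Extent of the peaks at 20 textbook pairs and 2 pairs of knockdown targets, in bp from the midpoint between the starts, with the plus-strand gene to the right. Each coloured bar is a peak in 1 library and the black ticks are the starts. Bars cover both ticks at most pairs, while those of Ncor1/Pigl and Wrap53/Trp53 lie off the starts, and at least 1 library has no bar at the last 5 pairs.

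Of the 8 genes that the study silenced for ATAC-seq in other libraries, 2 belong to divergent pairs. Rrp8, a methyltransferase-like nucleolar protein, shares its promoter (chr7:105736194-105737326) with Ilk, a gene of integrin signalling, and peaks were 1110 bp wide in shGFP and 326, 1077 and 1116 bp in shLuc. The peak of shLuc replicate 1 was much narrower than the others but still covered both starts. Ncor1, a nuclear receptor corepressor, is paired with Pigl, an enzyme of GPI anchor synthesis. Its peaks, 1307 bp in shGFP and 1033, 809 and 992 bp in shLuc, lay to the Ncor1 side and covered neither of the closest starts.

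At the extremes of the distance between starts, 3 pairs had starts 1 bp apart. At Pex13/Pus10, a peroxisome import gene and a pseudouridine synthase, the peak was 1164 bp in shGFP and 969, 1189 and 1214 bp in shLuc. Tubgcp2/Zfp511 and Slc7a6os/Prmt7 also had a peak in each library that covered both starts. Of the 3 pairs with the most distant starts, Btf3l4/Txndc12 (987 bp) had both starts in 1 peak in 3 libraries, with a peak of 1745 bp in shLuc replicate 2. Asphd1/Sez6l2 (981 bp) and 5330417C22Rik/1700013F07Rik (998 bp) had peaks of 935 bp or less that reached 1 start at most.

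The widest divergent promoters with a peak in all 4 libraries were Bola1/Hist2h2ab (2338 bp), Hras/Lrrc56 (2178 bp) and Aamdc/Rsf1 (2174 bp). At Hras/Lrrc56 the peaks were 2002 bp in shGFP and 1052, 2077 and 1755 bp in shLuc. The Bola1/Hist2h2ab region also held the next pair, Hist2h2ac/Hist2h2be, and its peaks ranged from 328 bp in shLuc replicate 1 to 2338 bp in shLuc replicate 2. Among promoters with a peak in 1 library, the widest were Zbtb25/Zbtb1 (2378 bp, shLuc replicate 2), Hist1h2ap/Hist1h2br (1407 bp, shLuc replicate 3) and Dok1/Loxl3 (1352 bp, shGFP). These widths lie above the median of promoters found in all 4 libraries, 1169 bp, whereas the median over the 35 promoters with a peak in 1 library was 612 bp. The widest of the 6 promoters missing from shGFP alone was Tlnrd1/Mesd, with peaks of 875, 2377 and 1494 bp in shLuc, followed by Hnrnpdl/Enoph1 and Fhod1/Slc9a5. The 13 promoters found in shGFP alone were led by Dok1/Loxl3, Plekhh3/Cntnap1 (1201 bp) and Hist1h2ag/Hist1h2bj (1170 bp). They were 1.21% of divergent promoters, against 4.77% of single-gene promoters found in shGFP alone. As many divergent promoters, 13, were found in shLuc replicate 2 alone, against 4.53% of single-gene promoters. Those missing from shGFP alone were 0.559% of divergent and 0.431% of single-gene promoters.

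Gene groups, listed by symbol, are described by counts with no test between them, with 11.3% of all autosomal coding genes in a pair and 74.0% of annotated pairs with a peak in all 4 libraries as the background. Of 152 genes of DNA repair and replication, 53 (34.9%) were in a divergent pair, and 50 of their 57 pairs had a peak in all 4 libraries. The exceptions, beside Fen1/Tmem258 and Tk1/Afmid, were Cdc45/Ufd1 (no peak in shLuc replicate 1), Emc3/Fancd2 (peaks in shGFP and shLuc replicate 2) and 3 pairs with no listed peak, Lig4/Abhd13, Rnaseh2a/Prdx2 and Polk/Gm17622. Polk, a translesion polymerase, had a second pair, Polk/Col4a3bp, with peaks of 1295, 850, 1248 and 1377 bp. Repair and replication genes outside pairs were also often shared by the libraries. Of 96 with a single-gene promoter, 78.1% had a peak in all 4 libraries, against 39.3% of all single-gene promoters.

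Aminoacyl-tRNA synthetases, which charge tRNAs, gave 10 genes in 9 pairs, and all 9 pairs had a peak in each library. Hars/Hars2, the cytosolic and mitochondrial histidyl-tRNA synthetases, had peaks of 836, 795, 897 and 796 bp. Of 78 genes of the mitochondrial ribosome, 29 (37.2%) were in pairs, and 22 of 28 pairs had a peak in all 4 libraries. Mrpl46/Mrps11 joins the large and the small subunit, with peaks of 764, 522, 723 and 592 bp. Mrpl40/Hira, with a histone chaperone on the plus strand, had the widest peaks of this group, 2041, 1814, 1927 and 1864 bp. Of 88 genes of oxidative phosphorylation, some of them assembly factors, 25 (28.4%) were in pairs, and 18 of 26 pairs had a peak in all 4 libraries. Ndufs1/Eef1b2 and Cbarp/Atp5d were among the pairs with no listed peak. For the proteasome, 11 of 49 genes were in pairs and 9 of 11 pairs had a peak in all 4 libraries. Genes of these groups with a single-gene promoter were often shared too. A peak in all 4 libraries was found at 92.6% of such synthetase genes and 72.7% of such mitochondrial ribosome genes. For oxidative phosphorylation it was 59.6% and for the proteasome 75%.

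Of 385 zinc finger genes, 31 (8.05%) were in pairs, and 18 of their 29 pairs had a peak in all 4 libraries. Counted by gene, the share was 64.5% in pairs and 66.0% of the 338 with a single-gene promoter. Of 1495 sensory receptor genes, 2 were in pairs, Vmn1r4 beside Nt5c3 and Tas1r1 beside Nol9. Of 42 collagen genes, 4 were in pairs, all of basement membrane chains. Col4a4/Col4a3 had peaks of 1151, 1095 and 792 bp in shGFP and shLuc replicates 2 and 3, so both collagen pairs lacked a peak in 1 library.

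Of 67 replication-dependent histone genes, 27 (40.3%) were in 14 pairs, and 3 pairs had a peak in all 4 libraries (21.4%, against 74.0% of all pairs). Pairs of 2 histone genes numbered 13. They were occupied in 53.8% in shGFP, 30.8% in shLuc replicate 1, 69.2% in shLuc replicate 2 and 46.2% in shLuc replicate 3, where all annotated pairs ranged from 79.9% to 88.3%. Histone genes outside pairs gave a like share, since 8 of 39 with a single-gene promoter (20.5%) had a peak in all 4 libraries. Hist1h2ac/Hist1h2bc had peaks of 1373, 870, 1318 and 1191 bp, and Hist1h2ah/Hist1h2bk of 1363, 897, 1313 and 1550 bp. Hist1h2ae/Hist1h2bg and Hist1h2bf/Hist1h2ad had no listed peak. Their windows held a median of 4.8 CpG per 100 bp against 7.6 for all pairs, and their starts were a median of 268 bp apart against 106 bp.

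The DNA between histone starts is shown for 2 pairs because of the CCAAT sites that they share and because they differ in how many libraries had a peak. Here capitals mark CCAAT, the NF-Y site, on either strand. Hist1h2ac/Hist1h2bc (chr13:23683949-23684198, 250 bases) had 3 such sites and 6 CpG, and a peak in all 4 libraries. Hist1h2ap/Hist1h2br (chr13:21833508-21833742, 235 bases) had 3 such sites and 13 CpG, and a peak in shLuc replicate 3 alone. Both are the plus strand of GRCm38 without annotated exons.
Hist1h2ac/Hist1h2bc: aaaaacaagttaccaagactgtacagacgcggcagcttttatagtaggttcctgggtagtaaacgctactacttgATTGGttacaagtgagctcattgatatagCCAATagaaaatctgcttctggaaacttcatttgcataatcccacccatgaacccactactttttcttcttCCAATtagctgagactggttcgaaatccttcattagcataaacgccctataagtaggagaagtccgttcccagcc
Hist1h2ap/Hist1h2br: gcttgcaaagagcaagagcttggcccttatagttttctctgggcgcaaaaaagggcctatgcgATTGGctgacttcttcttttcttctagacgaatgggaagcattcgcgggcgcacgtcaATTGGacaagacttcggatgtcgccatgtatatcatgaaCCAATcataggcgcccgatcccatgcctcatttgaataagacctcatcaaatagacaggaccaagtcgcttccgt

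CCAAT was in the promoter windows of 25 of the 26 genes in histone pairs, against 38.6% of all coding genes. TATAAA was in 16 of 26 (61.5%, against 12.7% of all coding genes), and CCGGAAG was in none, against 11.0%.

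Some histone pairs hold sequence found elsewhere in the genome. The 235 bases printed for Hist1h2ap/Hist1h2br recur without a mismatch, as the reverse complement, between the starts of Hist1h2bq/Hist1h2ao, which had peaks of 1332, 1515 and 1275 bp in shGFP and shLuc replicates 2 and 3. In a window of 1000 bp around each midpoint, a median of 54.2% of 50-base words occurred more than once in the genome for the 13 histone pairs (range 2.73% to 100%), and 8 of the 13 had 50% or more. Over all 1201 pairs the median was 0% and 13 pairs had 50% or more, so histones made up 8 of those 13. Reads from repeated words were placed by the authors at 1 of the matching positions at random, so peaks at the pairs rich in repeated words are uncertain. Over all pairs with a peak in 4, 3, 2, 1 and 0 libraries, the mean share of such words was 1.33%, 1.48%, 3.59%, 5.79% and 3.57%. Single histone pairs are given as examples. Hist1h2bh/Hist1h3f (2.73%) and Hist2h2ac/Hist2h2be (17.7%) had few such words and a peak in 3 libraries, but Hist1h2ba/Hist1h2aa (9.57%) had a peak in 1. Hist1h2ac/Hist1h2bc (54.5%) and Hist1h2ah/Hist1h2bk (58.6%) had many and a peak in all 4 libraries, whereas Hist1h2bf/Hist1h2ad (57.9%) had none. The part of repeated words, of CpG density and of distance in the low occupancy of histone pairs was not tested.

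The pairs with no listed peak stood apart in sequence too. The 102 pairs without a peak in any library had a median of 2.7 CpG per 100 bp (quartiles 1.4 and 5.9), and the 889 pairs with a peak in all 4 libraries had 8 (6.4 and 9.8). Pairs with a peak in 3, 2 and 1 libraries had medians of 7.8, 6.8 and 6 CpG per 100 bp, an order that followed the number of libraries. Whether peaks were filtered before the lists were deposited is not given in the sources used here, so a pair without a listed peak is not shown to be closed.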

How the data were processed

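ATAC-seq was measured in 4 control libraries, 1 shGFP and 3 shLuc. The peak lists were used as deposited, 1 per library, with 3 columns (chromosome, start and end), so the only measurements were positions and widths in bp. Per the labels and the study's methods, the authors aligned reads with Bowtie2 to mm10, kept the best alignment and placed a read with equally good positions at 1 of them at random, and MACS2 is named in the submitters' processing notes. Versions, the peak threshold and any shift of reads for the transposase are not given in the sources used here. No list has a score, count or depth.

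All 132789 peaks ended within the GRCm38 chromosomes. Regions, classes and annotated promoters were built with Python 3.11.15 and numpy 2.4.6 and plots with matplotlib 3.10.9, from transcript starts of GENCODE mouse release 21 and GRCm38 sequence. A library had a region when its peak overlapped it by at least 1 bp. A single-gene promoter in the annotation was a coding gene with no start of another coding gene within 1 kb. Classes were compared over the 4 libraries with an exact two-sided sign-flip permutation test, and Wilson 95% intervals cover counting error over promoters only. The labels do not say whether replicates are separate cultures, so the spread may be technical. The functions recovered 21 of 21 known counts on simulated lists with 1000 pairs and 4000 single genes.

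The members and gene lists were chosen with earlier results of these data known. Named pairs are knockdown targets, 22 textbook pairs, the extremes of region width and of distance between starts, and promoters found or missing in shGFP alone. Pairs named within a gene group are its exceptions or examples and were chosen after their values were seen, as was the count of repeated words. Some gene pairs that meet these rules are not reported here. Alternatives changed the start sites, distances, merging, overlap and list lengths, and left out each library.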

Additional observations from a re-analysis of the deposited data

Results flagged for a closer look

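The X chromosome was left out of the comparisons, and its peaks gave 24 further regions that meet the same rule for divergent promoters. A peak was present at 22 of the 24 in shGFP and at 14, 23 and 20 in shLuc replicates 1, 2 and 3. All 4 libraries had a peak at 13 of the 24 (54.2%), against 31.7% of 448 single-gene promoters on the same chromosome. These peaks are outside the main measurement, and no library without a hairpin gave a background level for them.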

How the results depend on the processing

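Of 77 comparisons of 6 results with 15 alternatives, 58 stayed the same, 19 moved and 0 reversed. The same meant within the SD between libraries, or within 1.5 times for counts. For the share with a peak in all 4 libraries it meant inside the Wilson 95% interval, which covers counting error only. The 3 differences between the classes stayed above 0 in each library used under all 41 of their alternatives. For the difference over annotated promoters, leaving out a library reuses the values of the others, so the sign of those alternatives was fixed in advance. With starts of gene records only there were 679 divergent promoters, a width difference of 86.1 bp and an occupancy difference over annotated promoters of 40.01 points. With starts at most 300 bp apart the width difference was 94.5 bp and 93.8% of occupied pairs had both starts in 1 peak. Where a peak had to cover the start, 83.4% of divergent promoters had a peak in all 4 libraries. The annotated difference was then 28.3 points. Under that setting a pair counted as occupied only if 1 peak covered both starts. The 98.4% with both starts in 1 peak was thus nearly fixed in advance, though it is counted among the 19 that moved. Requiring 50% coverage of a region gave 67.2% with a peak in all 4. The widest 50% of each list gave 60.8% and a width difference of 39.6 bp, and lists cut to the shortest length gave 68.6% and 55.4 bp. Both settings pick peaks by width, so no conclusion is drawn from their width differences. Against single-gene promoters with no other start the differences were 130.4 bp and 35.5 points. Standardised to the CpG density of divergent promoters they were 72.6 bp and 8.21 points, and the difference over regions was 6.93 points. That last value, against 11.8 points in the main setting, counts as the same because the SD between libraries was 7.81 points. Leaving out 1 library gave between 81.5% (without shLuc replicate 2) and 88.2% (without shLuc replicate 1) with a peak in all those left. Fewer libraries then had to hold a peak, so the direction of this change was nearly fixed in advance. Why values differed from the main setting was not tested, beyond the fewer peaks or starts that some alternatives use. No paired analysis of shGFP against shLuc was possible with 1 shGFP library, and no test between them was run. Depth is unknown, so a missing peak does not show closed chromatin, and with 4 libraries no test could pass.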

Other observations

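A further 151 coding pairs on the autosomes start toward each other, with the plus-strand start below the minus-strand start within 1 kb, so that the transcripts overlap. They were left out of the divergent pairs. A peak lay within 1 kb of both starts at 78.1% of them in shGFP and at 56.3%, 72.8% and 64.2% in shLuc replicates 1, 2 and 3, and 74 of 151 (49.0%) had a peak in all 4 libraries. Divergent pairs had 74.0% by the same count. The difference between the pair types was not tested.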
